A study of Mus musculus with 10 samples.

Results

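Cytosolic ribosomal proteins are the protein part of the ribosome outside mitochondria. Their genes were taken by name: protein-coding GENCODE M21 genes called Rpl or Rps followed by a number (with an a, x or l where present), the stalk genes Rplp0, Rplp1 and Rplp2, Rpsa, and Rps3a1. The rule used no measured value and gave 81 of the 47729 genes in the table, 49 of the large (60S) and 32 of the small (40S) subunit. Of the 81, 47 were measured in all 10 libraries and 34 in 9, because the female NP hippocampal library lacks counts for part of the genome. The low-count filter kept 78, and the 3 left out were Rpl3l, Rpl10l and Rpl39l.

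CF1 mice, an outbred stock, gave prefrontal cortex, hippocampus and hypothalamus on postnatal day 56. The F0 parents ate either normal-protein (NP) or low-protein (LP) food while mating, and the dams stayed on it through pregnancy and lactation. All offspring, LP included, were weaned on day 21 and then kept on NP for 5 weeks, so LP here is an early exposure and not the diet at sampling. Prefrontal cortex and hippocampus came from males and females and hypothalamus from males, with 1 library per region, sex and diet, which gives 5 LP/NP pairs. The labels do not say whether a library is 1 animal or a pool, nor whether the regions share animals, so p-values measure only the spread between these libraries. Total counts ran from 7871010 in the incomplete library to 16265481. Each region carried its own markers: summed hypothalamic markers reached 579 and 1103 CPM in the hypothalamic libraries and at most 2.75 CPM elsewhere. In bulk tissue, fewer cells of a type and less RNA per cell cannot be told apart.

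Ribosomal proteins are assembled with ribosomal RNA in the nucleolus in near-equal amounts, 1 copy of most proteins per ribosome. Their mRNAs are known for a tract of pyrimidines at the very 5′ end (the 5′ terminal oligopyrimidine, or TOP, motif), through which mTORC1 and LARP1 set their translation. Neurons use local ribosomes in dendrites and axons, and the genes are also known for large numbers of processed pseudogenes, copies of the mRNA scattered through the genome.

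RefSeq start sites (GRCm38.p6; the first listed start of each gene) were at hand for 61 of the 81 genes, and a run of pyrimidines can be looked for at each. The windows below run from 15 bases before the start to 15 bases from it onward, 5′ to 3′ on the gene's strand; capitals mark an unbroken run of C and T that opens with C at the start base and is at least 5 bases long. The first 6 genes carry it, and Rps3a1, Rpl41 and Rps2, which recur in the results, do not at this annotated base.
Rpl38, chr11:114668565-114668594, plus strand: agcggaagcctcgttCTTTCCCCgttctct
Rps6, chr4:86857353-86857382, minus strand: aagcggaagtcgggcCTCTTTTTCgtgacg
Rps15a, chr7:118116133-118116162, minus strand: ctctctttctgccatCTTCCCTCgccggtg
Rpl15, chr14:18270972-18271001, minus strand: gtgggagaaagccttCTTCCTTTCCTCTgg
Rps21, chr2:180257364-180257393, plus strand: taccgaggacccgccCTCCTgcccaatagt
Rps27, chr3:90213634-90213663, minus strand: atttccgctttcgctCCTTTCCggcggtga
Rps3a1, chr3:86142654-86142683, minus strand: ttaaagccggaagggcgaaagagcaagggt
Rpl41, chr10:128549154-128549183, minus strand: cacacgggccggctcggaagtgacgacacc
Rps2, chr17:24720048-24720077, plus strand: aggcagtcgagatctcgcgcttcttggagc

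Such a run sat at the annotated start of 12 of the 61 genes (19.7%), against 2.27% of 12262 promoters of the other genes tested. Within 5 bases either side of the start it was found in 27 of the 61 (44.3%), against 2449 of those 12262 promoters. The Ets-family core CCGGAAG, searched on both strands over the 300 bases from 250 before to 50 after the start, was in 25 of the 61 (41.0%), against 15.7%. The E-box CACGTG was in 8.2% against 9.63%, and the letters TATAAA in the 50 bases before the start were in 0 of the 61 against 1.62%. These are matches of letters and not shown sites.

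The level of each gene was compared per length, as CPM per kb of its merged exons. It spanned a wide range although the proteins are used in near-equal amounts. Rplp1, an acidic stalk protein that helps recruit elongation factors, was highest, at 1350 ± 26.7 CPM per kb in prefrontal cortex (SD, n = 4), 1138 ± 20.5 in hippocampus (n = 3) and 1070 ± 124 in hypothalamus (n = 2). Rps15, a small-subunit protein of the decoding region, followed at 801 ± 25.6, 590 ± 7.66 (n = 4) and 726 ± 88.6 CPM per kb in the same order. Both stood apart from the rest, for the next genes lay close together: averaged over the 3 regions, Rpl4 was at 356, Rps21 at 336 and Rpl8 at 328 CPM per kb. Their regional ranges overlapped, so the order of those 3 is not resolved. The median of the 81 genes was 81.2 CPM per kb, with 75.4 for the large and 97.2 for the small subunit.

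At the low end stood paralogs known from other tissues. Rpl10l and Rpl39l, which are known from testis, had at most 3 and 4 counts in any of the 10 libraries. Rpl3l, a paralog used in skeletal and heart muscle, had 1 to 10 counts per library. Their parents were abundant: in prefrontal cortex Rpl3 was at 361 ± 28.8, Rpl10 at 197 ± 7.00 and Rpl39 at 150 ± 9.88 CPM (SD, n = 4). Rps27l, a p53-responsive paralog, was expressed at 17.6 ± 1.31 CPM per kb in prefrontal cortex against 91.6 ± 5.95 for Rps27. Rps4l is annotated as a transcribed pseudogene and is not among the genes chosen.

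Rpl24 and Rpl34 were the lowest of the genes that passed the filter. Rpl24 had 4 to 20 counts per library, and 47.0% of its exon length is shared on the same strand with the read-through gene Gm28037. Rpl34 had 123 to 224 counts per library. A level per length depends on which exons are annotated: over the length of a reference transcript the median of the 81 genes rose to 190 CPM per kb, and Rpl35a, which lies 76th by merged exons, rose to 84.0 CPM per kb. Rplp1 and Rps15 remained the 2 highest on each of the 3 lengths tried.

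**Figure D1:**
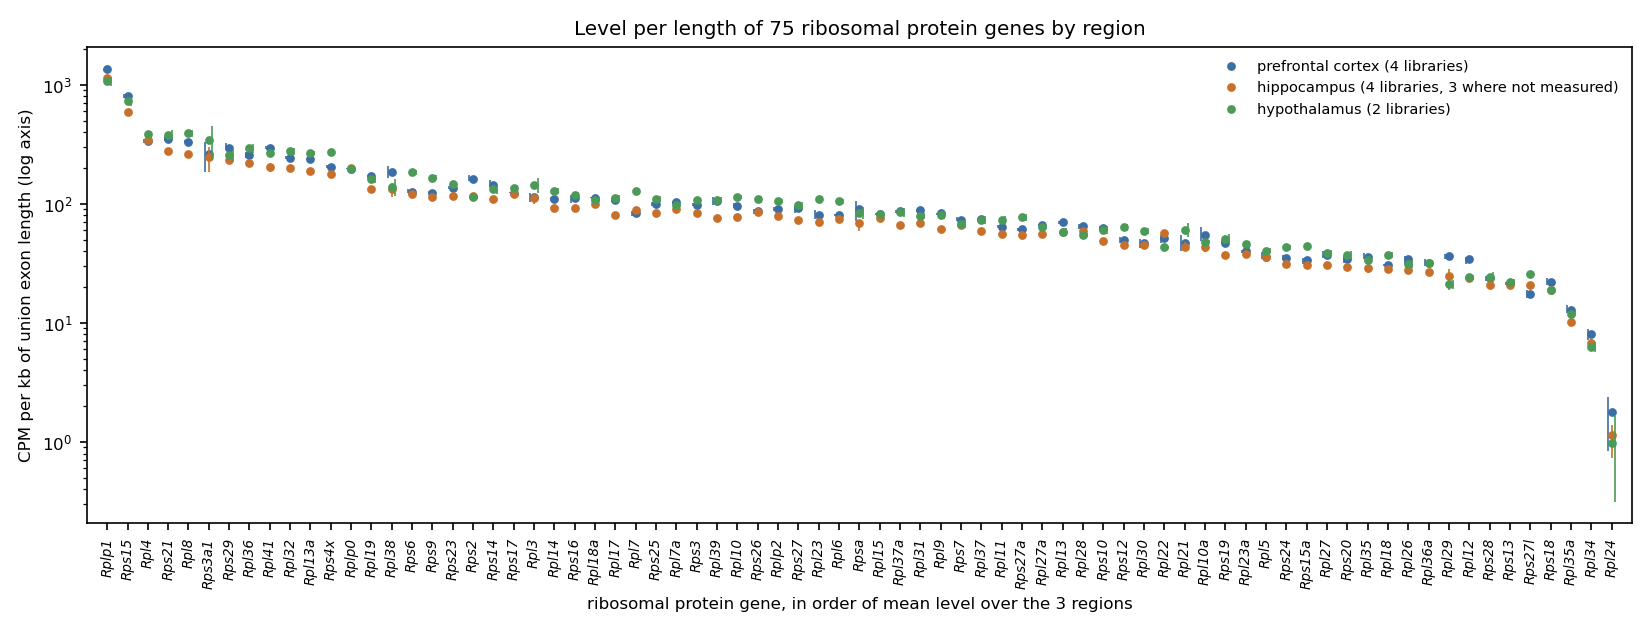
Mean CPM per kb of merged exon length (log axis) of 75 ribosomal protein genes that averaged at least 1 CPM, one dot per region, with vertical lines from the lowest to the highest library. Rplp1 (1186 over the 3 regions) and Rps15 (706) lie above the rest and Rpl24 (1.3) far below them.

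Near-identical copies bear on most of these values. At 95% identity over 80% of the coding sequence, 75 of the 81 genes had at least 1 copy among GENCODE M21 transcripts, and 72 had a pseudogene copy, up to 57 copies for 1 gene. The median was 5. Rpl8, Rps3 and Rps27l were among the tested genes that had none. Of 68 genes that could be summed with pseudogene copies in the table, the gene itself held a median of 63.5% of the summed counts, and 28 held under 50%. Rpl29 held 4.23% and Rps2 15.7%.

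Some copies cannot be told apart at all. Gm10163, Gm10240 and Gm13370, annotated pseudogenes of Rpl21, share 100% of 481 bases. Their counts differed by at most 16 in any of 9 libraries, where the square root of their mean count, the size of Poisson noise, was 33.2 to 51.6. How reads that match several places were counted is not stated, so a sum over copies may hold a read more than once.

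The regions were compared next, since each offers the same genes at the same age. Hippocampus carried less ribosomal protein mRNA than prefrontal cortex. Over the 47 genes measured everywhere, summed CPM was 7638, 7160, 7451 and 7395 in the prefrontal libraries (male NP, male LP, female NP, female LP) and 6077, 6059, 6205 and 6265 in the hippocampal libraries in that order. The hypothalamic libraries were at 8507 (NP) and 7262 (LP). The prefrontal and hippocampal values did not overlap, while the hypothalamic NP library lay above every prefrontal library and the LP library within their range. The place of the LP library depends on the scaling. As a share of unscaled counts on the genes measured everywhere, the hypothalamic libraries held 0.992% (NP) and 0.844% (LP), both above the prefrontal 0.690% to 0.745%.

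**Figure D2:**
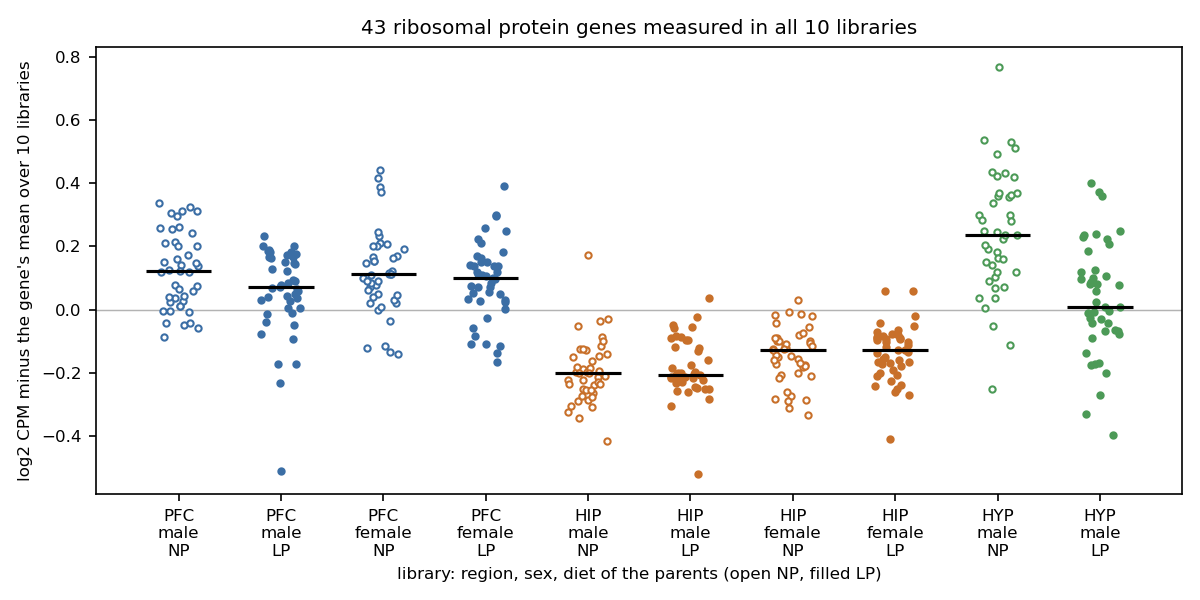
Each dot is 1 of 43 ribosomal protein genes, as log2 CPM minus the gene's mean over the 10 libraries; black lines are medians and open symbols NP. The hippocampal medians lie between -0.21 and -0.13, the prefrontal medians between 0.07 and 0.12, and the hypothalamic NP library is highest at 0.24.

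Of the 78 genes tested, 57 were lower in hippocampus than in prefrontal cortex and 0 were higher, with a median log2 difference of -0.23. Of all 17567 genes tested, 26.3% were lower and 27.3% higher, with a median of -0.01. No gene of the set passed upward in DESeq2 either, which called 51 lower, and the edgeR test put 61 of the 78 at an unadjusted p under 0.05, in both directions together. Of all 17567 genes, DESeq2 called 3842 lower, and edgeR put 10264 at an unadjusted p under 0.05. For 59 of the 78 every hippocampal library lay below every prefrontal library, as it did for 25.1% of all genes tested. The low side held 33 of 46 large-subunit and 24 of 32 small-subunit genes. Without the male NP hippocampal library, 42 were lower.

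Rpl41, which encodes a very short basic peptide of the large subunit, had the smallest p. Its CPM was 345, 335, 343 and 358 in prefrontal cortex and 218.5, 240.0, 239 and 255.5 in hippocampus (male NP, male LP, female NP, female LP). The groups were far apart, a log2 difference of -0.54 ± 0.05 (SE; edgeR adjusted p = 9.24e-07), or 1.45-fold lower. Rps15 went from 524, 491, 492 and 511 CPM to 371, 370, 379 and 368 CPM, a difference of -0.44 ± 0.05 (edgeR adjusted p = 2.66e-06), with less spread within each region than any gap between them. Rps2, a small-subunit protein near the mRNA entry, was at 287, 283, 321 and 288 CPM against 192, 222, 217 and 217 CPM (-0.48 ± 0.05, edgeR adjusted p = 3.48e-06). Rpl9, Rpl12, Rpl39, Rps14, Rpl17 and Rpl8 were also among the 10 with the smallest p, between -0.52 for Rpl12 and -0.33 for Rpl8. Rpl8 is of use here because it has no coding-sequence copy: it fell by 0.33 ± 0.04 on the log2 scale.

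A few genes did not follow. Rps27l had the highest difference, 0.25 ± 0.11 (edgeR adjusted p = 0.0709). Rpl22 was at 0.12 and Rpl7 at 0.08, and Rplp0, the stalk base, at 0.01 while its partners Rplp1 and Rplp2 were lower at -0.23 and -0.19. The largest negative values belonged to 2 genes read mostly through copies or at low counts, Rpl24 at -0.64 ± 0.39 (not past the threshold) and Rpl29 at -0.57 ± 0.11.

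Hypothalamus stood higher than hippocampus in most of these genes. There, 57 of 78 were higher and 1 lower, with a median of 0.34, against 30.7% higher and 29.8% lower of all genes and a median of 0.01. All 32 small-subunit genes had positive differences, and 25 passed. Rps4x, an X-linked small-subunit protein, was at 460.5 and 429.5 CPM in hypothalamus (NP, LP) against 290, 306 and 283 CPM in the hippocampal libraries that could be read. That is a log2 difference of 0.58 ± 0.06 (edgeR adjusted p = 1.9e-07), with no overlap. Rps6 (0.59), Rpl8 (0.56), Rpl10 (0.54), Rpl7 (0.54), Rps15a (0.53), Rps9 (0.52) and Rpl13a (0.49) were also among the 10 with the smallest p. Rpl23 had the highest difference, 0.61 ± 0.08. Rpl22, which binds RNA outside the ribosome as well, was the gene that fell, by 0.45 ± 0.06.

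Against prefrontal cortex the hypothalamus split the set. Of 78 genes, 28 were higher and 11 lower, shares near or below the 33.3% and 30.5% of all genes tested, and the median was 0.10 against 0.02. Rpl7 led the rise: 360 and 329 CPM in hypothalamus against 235, 212, 226 and 223 CPM in prefrontal cortex, or 0.62 ± 0.06 (edgeR adjusted p = 2.8e-07). Rps6, the target of S6 kinase, followed at 0.53 ± 0.06, and among the others with the smallest p were Rps9 (0.42), Rps4x (0.39), Rps15a (0.43), Rpl6 (0.36), Rpl23 (0.43), Rps24 (0.33) and Rps12 (0.38). The 11 lower genes were Rpl29 (-0.74), Rps2 (-0.47), Rpl12 (-0.46), Rpl38 (-0.42), Rpl34 (-0.39), Rpl22 (-0.33), Rplp1 (-0.31), Rpl28 (-0.26), Rpl13 (-0.23), Rps29 (-0.21) and Rps14 (-0.19). Rps2 was at 202 and 213 CPM in hypothalamus, below every prefrontal value. Summed with their pseudogene copies, 7 genes were lower in place of 11, and Rpl34, which holds 12.0% of its summed counts, turned to 0.13.

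The 2 hypothalamic libraries differed from each other, which bears on every count with that region. Without the hypothalamic NP library the median against prefrontal cortex was 0.03 with 18 higher and 16 lower; without the LP library it was 0.17 with 35 higher and 8 lower. Against hippocampus the same omissions gave 43 higher and 3 lower, and 60 higher and 1 lower. All contrasts share libraries, so the 43 genes that were both lower in hippocampus than in prefrontal cortex and higher in hypothalamus than in hippocampus rest partly on the same hippocampal values. The 4 genes Rpl5, Rpl24, Rplp0 and Rps13 passed in none of the 3 region contrasts.

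**Figure D3:**
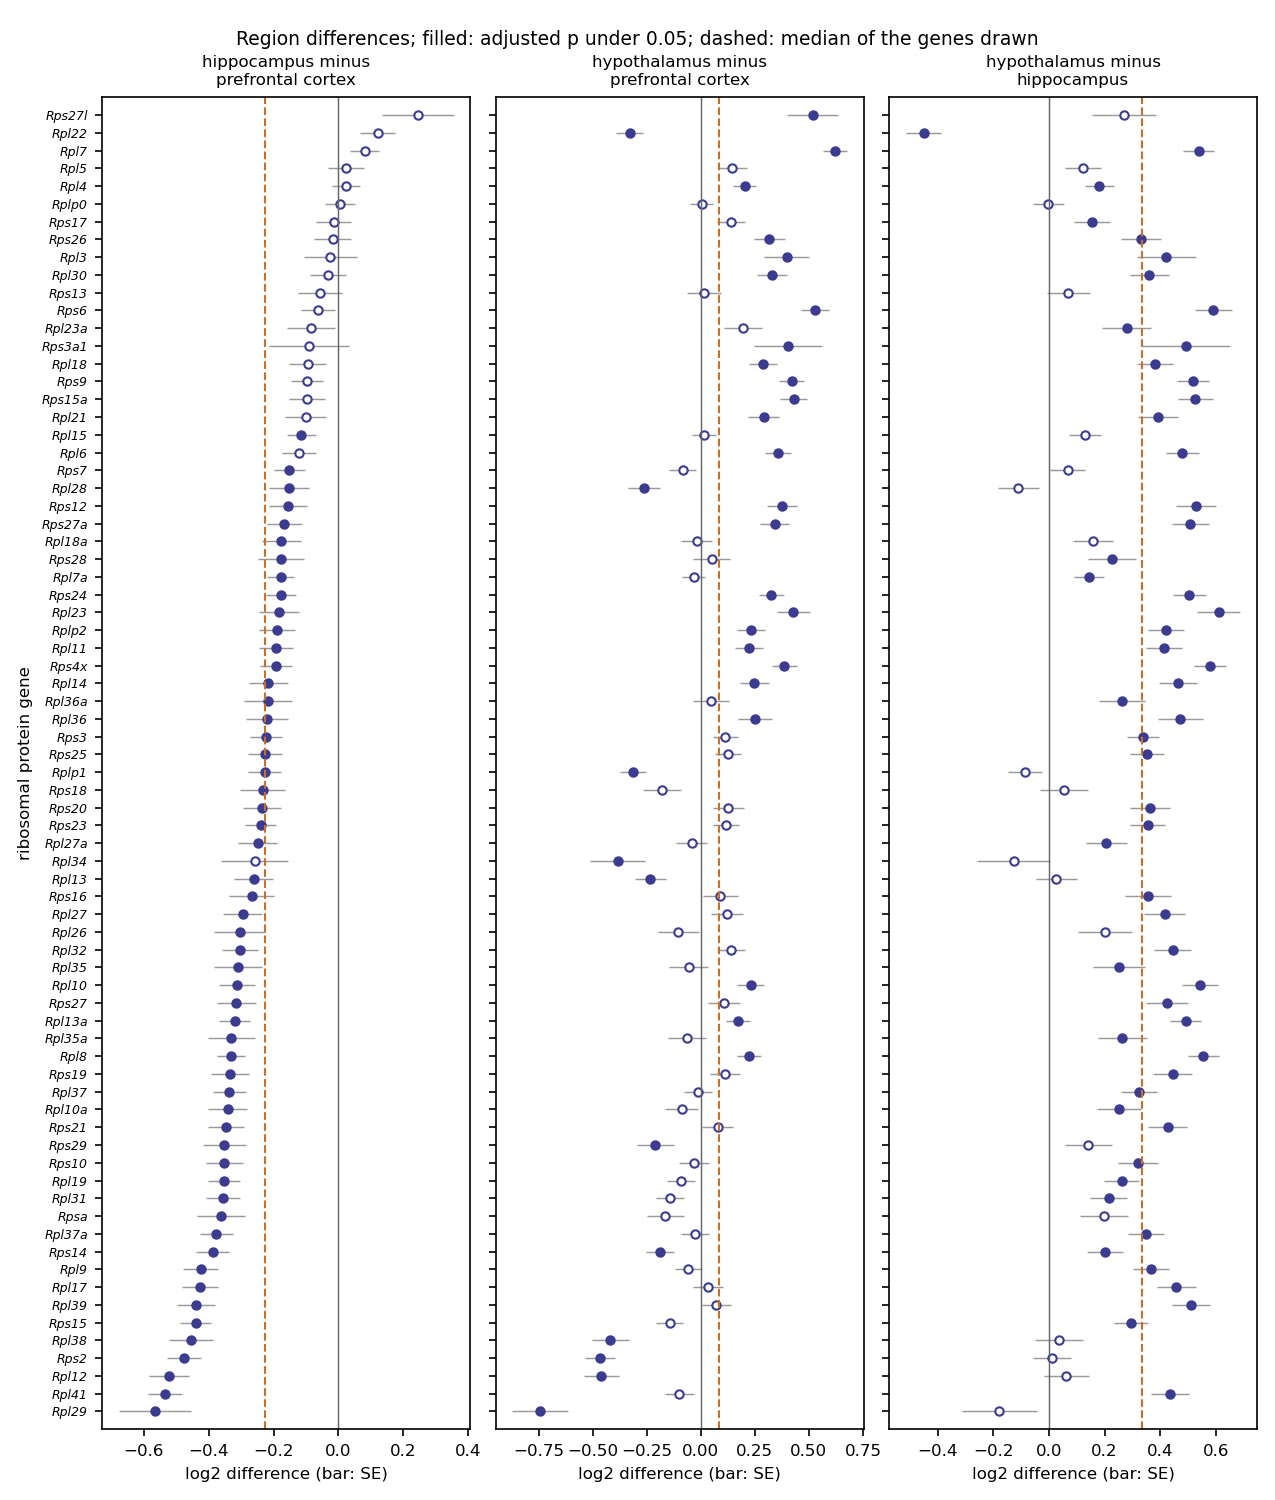
Log2 differences between regions for 74 ribosomal protein genes (Rpl24, at very low counts, is among those not drawn), ordered by hippocampus minus prefrontal cortex; bars are SE, filled dots have an edgeR adjusted p under 0.05 and dashed lines are medians of the genes drawn. In the left panel 54 dots are filled and all lie left of 0, and in the right panel 54 of 55 filled dots lie right of 0.

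Markers of cell types and transcript length moved with the regions too. Oligodendrocyte markers were higher in hippocampus than in prefrontal cortex (8 of 8 past the threshold), neuronal markers lower (3 of 4) and blood markers lower (5 of 5). Among genes outside the set, the median hippocampus minus prefrontal difference was -0.13 for genes under 1 kb of merged exon, -0.11 from 1 to 2 kb, -0.06 from 2 to 4 kb, 0.02 from 4 to 8 kb and 0.22 over 8 kb. The ribosomal protein genes lay lower within each class they fill: -0.23, -0.28, -0.19 and -0.20. The male NP hippocampal library also held 670.1 CPM of the pituitary gene Gh, against at most 7.89 CPM in the other hippocampal libraries. For hypothalamus against hippocampus, neuronal markers were lower (3 of 4, with the other 1 higher), as were oligodendrocyte (8 of 8) and microglial markers (5 of 6), while blood (5 of 5) and meningeal markers (4 of 4) were higher. Other genes were at 0.09 under 1 kb, 0.13 from 1 to 2 kb, 0.08 from 2 to 4 kb, -0.03 from 4 to 8 kb and -0.12 over 8 kb in that contrast. The ribosomal protein genes were at 0.30, 0.34, 0.26 and 0.41 in the classes they fill. For hypothalamus against prefrontal cortex, neuronal (3 of 4) and microglial markers (6 of 6) were lower and oligodendrocyte (8 of 8), blood (5 of 5) and meningeal markers (4 of 4) higher. Other genes were at -0.02 under 1 kb, 0.04 from 1 to 2 kb, 0.03 from 2 to 4 kb, 0.00 from 4 to 8 kb and 0.09 over 8 kb there. The ribosomal protein genes were at 0.14, 0.05, 0.01 and 0.21 in the classes they fill, so from 2 to 4 kb they did not lie above the other genes. The part of these markers and of length in the differences was not tested.

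Companion genes of the same machinery were called in both directions. Of 5 other cytosolic ribosomal proteins, Fau, which encodes a ubiquitin-like protein fused to the 40S protein eS30, was lower in hippocampus than in prefrontal cortex (-0.34 ± 0.06), as was Rack1, a scaffold on the 40S head (-0.20 ± 0.05). Rpl22l1, the paralog of Rpl22, was higher in hypothalamus than in prefrontal cortex by 1.07 ± 0.08 and than in hippocampus by 0.97 ± 0.08 (1.95-fold), where Rpl22 was lower. The counts that follow stand beside the 27.3% higher and 26.3% lower of all genes in hippocampus against prefrontal cortex. Of 36 ribosome biogenesis genes, 11 were higher and 6 lower in hippocampus than in prefrontal cortex. Among them were Npm1 (0.42 ± 0.05), Nop58 (0.54 ± 0.07) and Ncl (0.41 ± 0.06), nucleolar proteins on the higher side, and Nhp2 (-0.43 ± 0.07) on the lower side. In hypothalamus against prefrontal cortex Npm1 was 2.45-fold higher and Nhp2 2.55-fold lower. There 6 of the 36 were higher and 9 lower, beside 33.3% and 30.5% of all genes. Of 35 initiation factors 15 were higher and 8 lower in hippocampus, and of 11 elongation factors 3 were higher and 6 lower, Eef1a2 at -0.45 and Eef1a1 at 0.27. Of 22 other mRNAs known for a TOP motif, 5 were higher and 9 lower.

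Mitochondrial ribosomal proteins, which are encoded in the nucleus and serve a separate ribosome, had 4 higher and 17 lower of 76 in hippocampus against prefrontal cortex, with a median of -0.12. Nuclear subunits of oxidative phosphorylation had 4 higher and 41 lower of 80, with a median of -0.15. In the mTORC1 pathway 7 of 23 were higher and 8 lower, including Ddit4, an inhibitor of mTORC1 (0.81 ± 0.06), Deptor, another (-1.30 ± 0.13), and Rps6kb1, the S6 kinase (0.61 ± 0.08). In the Myc network 2 of 9 were higher and 6 lower, with Mycl at 1.70 ± 0.07. RNA polymerase I and its factors had 4 higher and 4 lower of 15, and the quality control and stress list 7 and 3 of 13.

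The diet comparison asked whether early LP left a trace in these genes at day 56. Over the 5 pairs, 0 of the 78 were higher in LP and 3 were lower: Rpl21, Rpl38 and Rps3a1. Of all 17805 genes tested, 0.949% were higher and 0.461% lower. The median difference of the set was -0.06, against 0.00 for all genes, and 67 of the 78 had a negative sign. DESeq2 called 0 of the 78, with 4 at an unadjusted p under 0.05 against 5 in edgeR. Of all 17805 genes, 976 were under 0.05 in DESeq2 and 2487 in edgeR. The SE of a gene ran from 0.04 to 0.37 with a median of 0.05, so for a typical member a diet difference of 0.1 on the log2 scale is about 2 SE.

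The title of the hypothalamic LP library carries a code whose middle part differs from that of the other 9 libraries. Those 9 codes are not all written alike, and the labels do not say what the code means. In the hypothalamic pair 75 of 78 genes were lower in LP, with a median of -0.18, against -0.00 for other genes. The medians of the other pairs were -0.06 in male prefrontal cortex, -0.01 in female prefrontal cortex, 0.02 in male hippocampus and 0.01 in female hippocampus (44 genes). Without the hypothalamic pair the overall median was -0.02 and 0 genes passed; without either prefrontal pair 1 passed, and without either hippocampal pair 2. In the hypothalamic pair other genes were also ordered by length. Their medians were -0.11 under 1 kb, -0.07 from 1 to 2 kb, -0.02 from 2 to 4 kb, 0.02 from 4 to 8 kb and 0.06 over 8 kb. The members were at -0.24, -0.18, -0.15 and -0.15 in the classes they fill, in the same order. Markers, summed over those measured in all libraries, moved as well: hypothalamic markers went from 1103 CPM in NP to 579 in LP, oligodendrocyte markers from 4356 to 3262, blood markers from 1467 to 987 and meningeal markers from 164 to 351. The hypothalamic fall lay in Avp (437.6 to 231.0 CPM), Oxt (290.7 to 130.7), Pmch (177.6 to 103.6) and Hcrt (123.4 to 26.0). Nkx2-1 (58.6 to 73.1), Sim1 (14.7 to 14.8) and Agrp (30.1 to 32.3, not in the sum) were not lower in LP. Blood markers were lower in LP in each of the other 4 pairs too, and 5 of 5 passed over the 5 pairs. Their part in the ribosomal protein values was not tested.

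**Figure D4:**
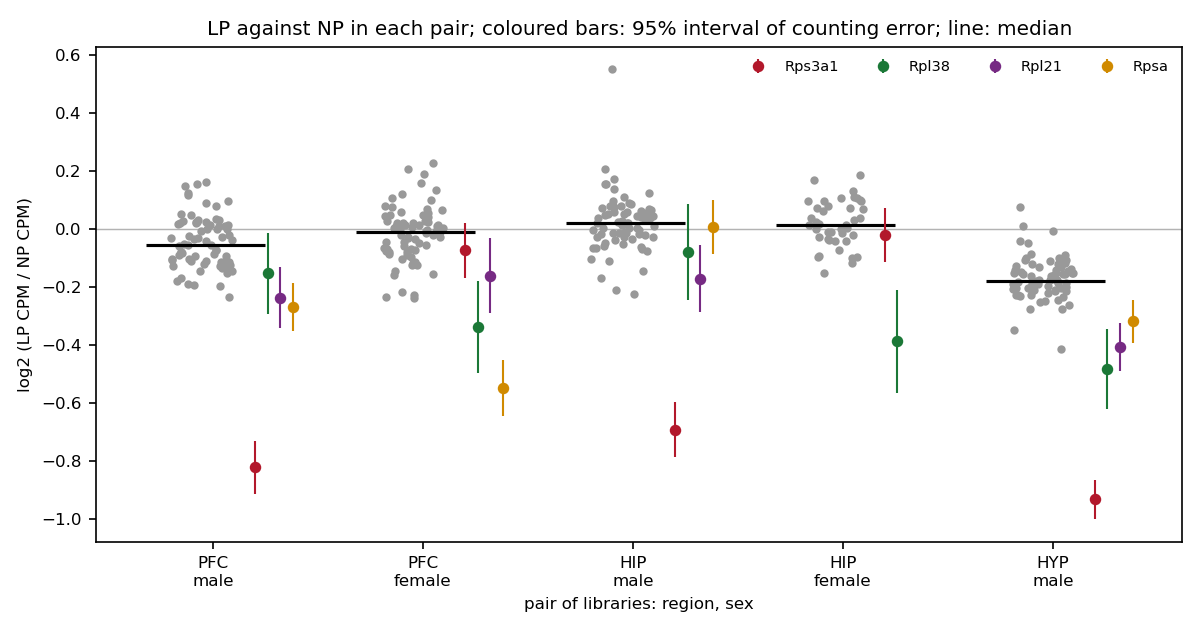
Log2 ratio of LP to NP for 77 ribosomal protein genes (grey dots, fewer in female hippocampus; Rpl24 not drawn) in each of the 5 pairs, with the median as a black line. Coloured dots with 95% intervals of counting error are Rps3a1, Rpl38, Rpl21 and Rpsa; Rps3a1 is at -0.82, -0.69 and -0.93 in the male pairs and at -0.07 and -0.02 in the female pairs.

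Rps3a1 encodes a small-subunit protein (eS1) that contacts initiation factor eIF3. Its CPM in NP and LP was 321 and 182 in male prefrontal cortex, 292 and 181 in male hippocampus, and 440.3 and 230.5 in male hypothalamus. In females it was 273 and 259 in prefrontal cortex and 249.1 and 245.2 in hippocampus. All 3 male LP libraries thus lay below every other library, and the female LP libraries close to their NP partners. Over 5 pairs the difference was -0.52 ± 0.11 (SE; edgeR adjusted p = 0.0466). A test of the sex difference over the 4 pairs of prefrontal cortex and hippocampus, chosen after these values were seen, gave 0.71 ± 0.08 for females minus males (edgeR adjusted p = 0.00211; DESeq2 adjusted p = 0.000416). It was the only one of 44 ribosomal protein genes past the threshold, where 0.109% of 10973 genes were higher and 0.0638% lower. As the regions may share animals, sex cannot be told apart here from a difference between single animals or pools.

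In the male pairs 3 of its pseudogene copies had higher counts in LP, so their sequences are given here. They are bases 475 to 534 of the Rps3a1 coding sequence, counted from the A of the start codon, a 60-base window in which each of its copies Rps3a2, Rps3a3 and Gm5586 differs from it, taken for the most differences in total; capitals mark bases that differ from Rps3a1.
Rps3a1, chromosome 3: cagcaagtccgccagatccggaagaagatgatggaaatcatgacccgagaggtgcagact
Rps3a2, chromosome 14: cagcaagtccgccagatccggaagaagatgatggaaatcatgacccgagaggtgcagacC
Rps3a3, chromosome 13: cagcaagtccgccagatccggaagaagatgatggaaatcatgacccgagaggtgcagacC
Gm5586, chromosome 7: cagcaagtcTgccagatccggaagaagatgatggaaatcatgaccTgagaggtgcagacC

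Even here the copies differ at 1, 1 and 3 of 60 bases, and over the aligned coding sequence at 4, 8 and 12 bases. Counts at Rps3a3 in NP and LP were 395 and 913 in male prefrontal cortex, 347 and 877 in male hippocampus and 694 and 1672 in male hypothalamus. In females they were 508 and 448, and 509 and 494. Gm5586 went from 267 to 521, from 243 to 522 and from 460 to 941 counts in the male pairs and from 309 to 265 in female prefrontal cortex. Over the pairs Gm5586 was higher in LP by 0.79 ± 0.14 (edgeR adjusted p = 0.0134), and Rps3a3 by 0.79 ± 0.19 (adjusted p = 0.0613, not past the threshold). Rps3a2, at 1079 and 1427, 981 and 1503, and 2184 and 2692 counts in the male pairs, was at 0.25 ± 0.08 (edgeR adjusted p = 0.181). The further copy Gm13408 was at -0.10 ± 0.07 (edgeR adjusted p = 0.576), so 1 of the 4 copies tested passed.

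Summed over Rps3a1, Rps3a2, Rps3a3 and Gm13408, the 4 genes that were read in all libraries, CPM in NP and LP was 534 and 479, 488 and 494, and 716 and 659 in the male pairs, and 531 and 493, and 477 and 481 in the female pairs. The sum differed by -0.07 ± 0.04 over the pairs (edgeR adjusted p = 0.428). Rps3a1 itself held 60.1%, 59.8% and 61.5% of it in the male NP libraries and 37.9%, 36.6% and 35.0% in the male LP libraries. It held 51.0% to 52.6% in the 4 female libraries. What differed between male NP and male LP was thus the split of counts between near-identical sequences more than their total. What lies behind the split was not tested.

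**Figure D5:**
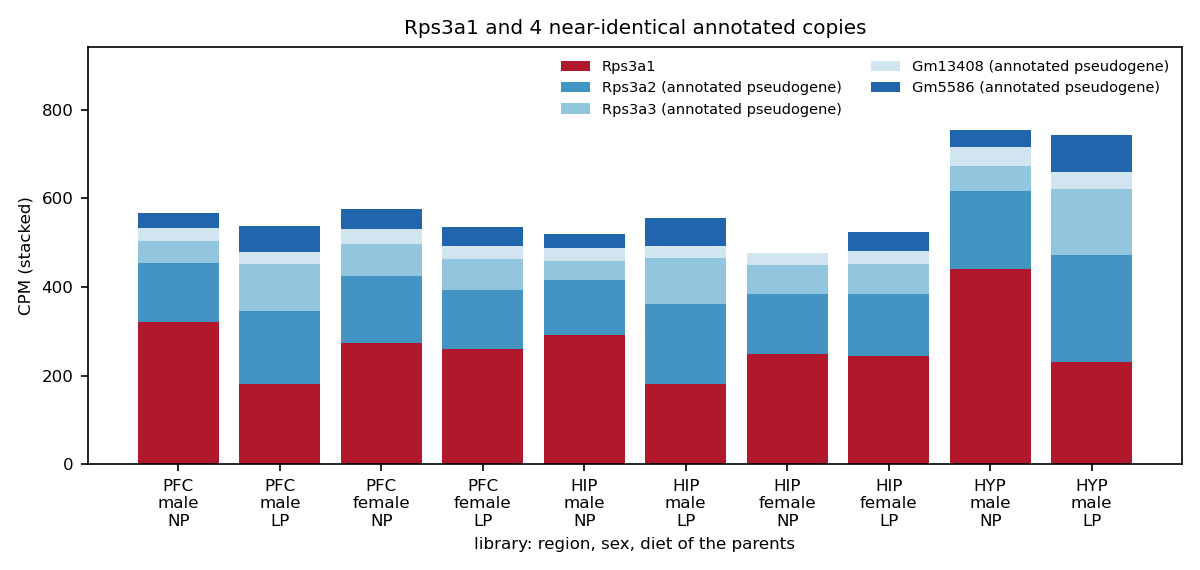
Stacked CPM of Rps3a1 (red) and 4 annotated pseudogene copies (blues) in the 10 libraries, in pairs of NP and LP; Gm5586 was not read in the female NP hippocampal library. The red part falls in the 3 male LP libraries (182, 181 and 230.5 CPM) while the stack stays near its NP partner.

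Rpl38, a large-subunit protein whose loss causes the Tail-short skeletal phenotype in mice, was lower in LP in each of the 5 pairs. Its CPM in NP and LP was 104.5 and 93.9, and 112 and 88.7, in male and female prefrontal cortex; 75.7 and 71.6, and 81.6 and 62.3, in male and female hippocampus; and 88.0 and 62.9 in hypothalamus. The 95% interval of counting error included no difference in male hippocampus alone. Over the pairs it fell by 0.29 ± 0.06 on the log2 scale (edgeR adjusted p = 0.0379; DESeq2 adjusted p = 0.0563). Summed with Rpl38-ps1, the copy read in all libraries, it was at -0.32 ± 0.06 (edgeR adjusted p = 0.0257). The gene itself held 94.7% of that sum, so the value largely repeats that of the gene alone. The copies Rpl38-ps2 and Gm8129, both on chromosome 6, were not in the sum. Rpl38-ps2 is identical in coding sequence and held more counts than the gene, 1048 and 1010 in male prefrontal cortex (NP, LP) against 841 and 816. It was at -0.11 ± 0.06 (edgeR adjusted p = 0.412), and Gm8129 was at -0.34 ± 0.09 (edgeR adjusted p = 0.0928). Of 3 copies tested, 0 passed in either direction.

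Rpl21 was lower in LP in the 4 pairs where it was read: 187 and 159 CPM (NP, LP) in male and 154 and 138 in female prefrontal cortex, 162 and 144 in male hippocampus, and 236 and 178 in hypothalamus. The intervals of counting error excluded no difference in all 4. The difference was -0.25 ± 0.05 (edgeR adjusted p = 0.0359; DESeq2 adjusted p = 0.116). Rpl21 held 14.4% of the counts of its family of 45 pseudogene copies, and the family sum differed by -0.01 ± 0.04 (adjusted p = 0.945). Of 18 copies tested, 0 passed the threshold as lower in LP and 2 passed as higher, beside 0.461% and 0.949% of all genes tested. The copies that did not pass lay on both sides of no difference, from -0.55 ± 0.18 for Gm8054 to 0.19 ± 0.08 for Gm10045.

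Rpsa, a 40S protein also described as a laminin receptor, missed the threshold at -0.28 ± 0.07 (edgeR adjusted p = 0.0585). Its CPM in NP and LP was 321 and 267 in male and 334.5 and 229 in female prefrontal cortex, 233 and 234 in male hippocampus, and 296 and 237 in hypothalamus. The LP value was below the NP value in the other pairs and not in male hippocampus. Its copy Rpsa-ps10 held more counts, 3192 and 3935 in male and 2673 and 3242 in female prefrontal cortex. It had 2274 and 3210 counts in male hippocampus and 5882 and 4864 in hypothalamus, where both the copy and Rpsa were lower in LP. The family sum was at 0.02 ± 0.06 over the pairs (edgeR adjusted p = 0.916).

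Rps2 was the opposite case. The gene itself did not pass, at 0.02 on the log2 scale, with the sum of it and 11 copies at -0.20 ± 0.04 (edgeR adjusted p = 0.0238). Of 14 copies tested, 7 passed the threshold as lower in LP and 1 as higher, beside 0.461% and 0.949% of all genes tested. The copies are near-identical and a read may be counted at several of them. These calls and the sum may thus not be separate results. The sum in NP and LP was 1929 and 1585, and 2163 and 1881 CPM in male and female prefrontal cortex, 1330 and 1187, and 1460 and 1403 in male and female hippocampus, and 1495 and 1207 in hypothalamus, lower in LP in all 5 pairs. The exception, Gm5921, went from 93 to 195, from 65 to 154 and from 82 to 216 counts in the male pairs and from 78 to 74 in female prefrontal cortex; it is named after its values were seen.

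The 3 highest diet differences were those of Rpl24 (0.66 ± 0.37), Rpl29 (0.11 ± 0.10) and Rpl35a (0.04 ± 0.07), none past the threshold. Rpl24 rested on few reads: 7 and 20 counts in NP and LP of male prefrontal cortex, 17 and 11 in females, 6 and 11, and 11 and 9 in hippocampus, and 4 and 19 in hypothalamus.

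Within single regions no ribosomal protein gene passed. In prefrontal cortex 0 of 44 genes passed in either direction (edgeR; 3 at an unadjusted p under 0.05, DESeq2 0 and 0), where 0.985% of 11876 genes were higher and 0.8% lower. Of the 11876 genes, 1569 had an unadjusted p under 0.05 in edgeR. Among the 44, Rps3a1 had the lowest difference, -0.45 ± 0.14, then Rpl38 at -0.24 ± 0.09 and Rpl30 at -0.18 ± 0.07. In hippocampus 0 of 44 passed (2 at an unadjusted p under 0.05, DESeq2 0 and 0), where 0.219% of genes were higher and 0.109% lower, with Rps3a1 at -0.36 ± 0.14 and Rpl38 at -0.23 ± 0.09. There 694 of the 11876 genes had an unadjusted p under 0.05 in edgeR. The diet difference itself, hippocampus minus prefrontal cortex, passed in 0 of 44 genes and in 0.0% of all 11876 (637 of them at an unadjusted p under 0.05, DESeq2 0 called and 47). Each of these fits leaves few degrees of freedom, and a p that misses the threshold does not show that values are alike.

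Over the 5 pairs, 1 gene of the companion lists passed in the diet comparison. None of 5 other ribosomal proteins, 11 elongation factors, 22 other TOP mRNAs, 35 initiation factors, 36 biogenesis genes, 15 RNA polymerase I factors, 23 mTORC1 genes, 9 Myc network genes, 13 quality control genes or 76 mitochondrial ribosomal proteins passed over the 5 pairs in edgeR, although 0 to 7 per list had an unadjusted p under 0.05. Of all 17805 genes tested, 2487 were under that p. Fau was at -0.05 ± 0.05 and Rack1 at -0.01 ± 0.05. Of 80 oxidative phosphorylation subunits 1 was lower, Ndufs5 of complex I, at -0.80 ± 0.06 (edgeR adjusted p = 5.11e-05). The median of the other TOP mRNAs was -0.04 and that of the mitochondrial ribosomal proteins -0.03. In the Myc network all 9 genes had a positive difference, with a median of 0.15 and 4 at an unadjusted p under 0.05. Within prefrontal cortex alone, the initiation factor Eif5 (-0.28 ± 0.07, edgeR adjusted p = 0.0415) and the nucleolar protein Ncl (-0.25 ± 0.06, adjusted p = 0.049) were lower in LP, as was Ndufs5 (-0.81 ± 0.10, adjusted p = 0.000304). The cell cycle inhibitor Cdkn1a was higher there (0.64 ± 0.13, edgeR adjusted p = 0.0199). Within hippocampus Ndufs5 was lower (-0.69 ± 0.10, edgeR adjusted p = 0.00175). Ribosomal protein genes with a pyrimidine run at the annotated start base had a median diet difference of -0.06 (12 genes) and those without one there -0.05 (46 genes). For hippocampus against prefrontal cortex the same medians were -0.22 and -0.24. This split rests on a single annotated base, and 27 of the 61 genes had such a run within 5 bases of it. It thus cannot compare mRNAs with and without a TOP motif.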

How the data were processed

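Messenger RNA was measured in 10 brain libraries made from 1 µg of total RNA with a TruSeq kit, per the labels' protocols. The submitters' processing notes name CASAVA, FastQC 0.10.1, STAR 2.5.0a and the mm10 build; the counting tool, strand setting, annotation and treatment of reads that map to several places were not given in the sources used here. The values deposited by the authors were whole-number read counts per gene. Every numeric column was mapped to a library, so 0 columns were left unused.

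Symbols and lengths came from GENCODE M21 (47310 of 47729 identifiers matched). The female NP hippocampal column holds no counts beyond a point on chromosome 4, on chromosomes 5 to 9, X, Y and in the mitochondrial genome. Those 19598 genes were treated as missing there, and library sizes were sums over the other 28131 genes multiplied by TMM factors. CPM is relative to that size; the whole library held 1.50 to 1.54 times as many counts as these genes in the 9 complete columns. Tests were edgeR 4.0.16 quasi-likelihood F tests (filterByExpr, minimum count 10), with Benjamini-Hochberg adjustment over all genes and a threshold of 0.05. Diet was fitted with the 5 pairs as strata, and region with sex and diet as terms. DESeq2 1.42.0, other normalizations, no filter and left-out libraries were alternatives. Near-identical copies were found with blastn 2.17.0 (95% identity over 80% of the sequence). The tests were checked on simulated data. Single-pair ratios carry exact (Clopper-Pearson) 95% intervals, which cover counting error only.

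The members and gene lists were chosen with earlier results of these data known. Named members are those past the threshold (up to 10 a direction, by smallest p), the 3 highest and 3 lowest differences of each comparison, the tissue-restricted paralogs and their parents, and the 5 highest and 5 lowest levels per length; other genes are named by the list rule (up to 4 past the threshold) or as stated. A few genes are counted in the totals but are not reported here by name and are not drawn in the plots that label genes.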

Additional observations from a re-analysis of the deposited data

Results flagged for a closer look

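A test for a value far from the rest of its group was run on 56 groups of 4 or 5 values, and 4 passed, where chance gives about 1 in 20. All 4 lie in prefrontal cortex. Rps2 was at 321.3 CPM in the female NP library, the highest of 4. Rps14 was highest in the male NP library, at 383.1 CPM. Rpl9 was lowest in the female LP library, at 249.2 CPM, and Rplp1 was lowest in the male LP library, at 654.0 CPM.

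The diet difference of Rps3a1 differed between the male and female pairs of these libraries, with females minus males at 0.71 on the log2 scale (edgeR adjusted p = 0.00211). Both male pairs of prefrontal cortex and hippocampus were below 0, at -0.82 and -0.69, and both female pairs near 0, at -0.07 and -0.02. The test was chosen after these values were seen. It took the regions of a sex as separate pairs, and the labels do not say whether regions share animals. Sex thus cannot be told apart from a difference between single animals or pools. Summed over Rps3a1 and 3 near-identical copies, the diet difference over all pairs was -0.07 ± 0.04 (edgeR adjusted p = 0.428).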

How the results depend on the processing

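With 10 libraries, 1 per group, the count of 3 lower genes in the diet comparison moved with several settings. DESeq2 called 0 and the fit without a low-count filter 0; leaving out 1 pair gave 0 to 2, with 0 without the hypothalamic pair and 1 without either prefrontal pair. Upper-quartile factors gave 4. Within prefrontal cortex, summing genes with their pseudogene copies gave 1 lower gene and leaving out a pair 0 to 1; within hippocampus leaving out a pair gave 0 to 1. For hypothalamus against prefrontal cortex, 7 were lower with summed copies, and leaving out a library gave 18 to 35 higher. For hypothalamus against hippocampus, 2 were lower with summed copies, and leaving out a library gave 1 to 3. With summed copies Rpl34 turned to 0.13 and Rpl24 to 0.23 against prefrontal cortex, and Rpl34 to 0.43 against hippocampus. The cause of these changes was not tested. The lower count in hippocampus against prefrontal cortex ran from 42 to 59 without 1 library, with 0 higher throughout. The median level per length was 137 CPM per kb over the longest and 190 over the reference transcript. Upper-quartile factors moved the median of all genes to 0.14 for hypothalamus against hippocampus, where 62.1% of called genes were then higher against 50.8%; the members' median relative to all genes was 0.33 in both. The summed copies, the coding-sequence criterion, the reference transcript and the sex difference were chosen after seeing the data. The LP and NP libraries of a region and sex were fitted as pairs.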
